A study of Homo sapiens with 12 samples.

Results

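The genes described here are the antisense long noncoding RNAs (lncRNAs) named after a gene on the opposite strand, that is, all genes of the count table whose symbol ends in -AS and a number. Of 719 such genes, 334 had over 0.5 CPM (reads of a gene scaled to the library total) in at least 2 of the 12 libraries and make up the set, out of 25369 genes in the table and 15595 that met the same level rule. The partner, the gene whose symbol stands before -AS, was found in the table for 330 of them (328 distinct genes), 1 of these by its older symbol (JHDM1D-AS1, whose partner is now KDM7A). HOXB-AS1, HOXC-AS1, HOXD-AS2 and RPARP-AS1 had no partner under that name. DLGAP1-AS1 and DLGAP1-AS2 shared a partner, as did GAS6-AS1 and GAS6-AS2. At the edge of the level rule, the second-highest library value was 0.504 CPM for SNAP25-AS1 and 0.509 CPM for ZNRF3-AS1, both inside, and 0.497 CPM for SSBP3-AS1 and 0.496 CPM for HM13-AS1, both outside.

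Polyadenylated RNA was sequenced with its strand in 3 established human cancer cell lines kept in normoxia or in 1% oxygen for 24 h. RKO is a colon carcinoma line, A549 a lung adenocarcinoma line and H460 a large cell lung carcinoma line. None of the 6 groups carried an engineered allele or a drug, and each had 2 independent biological replicates. RKO and A549 were grown in DMEM and H460 in RPMI, so that line and medium cannot be told apart where H460 is compared with the others.

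Library totals ran from 27350424 to 41757584 counts, of which the 334 antisense lncRNAs held 0.175% to 0.345%. CA9, NDRG1, VEGFA, PDK1 and SLC2A1, textbook genes of the hypoxic response, were higher in both hypoxia libraries than in both normoxia libraries of every line, although the A549 hypoxia replicates differed from each other (675 and 1690 CPM for NDRG1, 206 and 458 CPM for VEGFA). The intestinal factor CDX2 was at 6.01 RPKM (reads scaled to gene length and library total) in RKO, with VIL1 at 0 and CDH17, LGALS4 and KRT20 each at or under 0.0221 RPKM. In the lung lines the surfactant genes SFTPB and SFTPC stayed at or under 0.0385 RPKM and NKX2-1 was at 0.0485 RPKM in A549 and 0.576 RPKM in H460, whereas the aspartic protease NAPSA was at 2.97 and 0.392 RPKM and the keratin KRT7 at 1870 and 8.51 RPKM. The blood genes CD3E and HBB were at 0 in all lines.

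An antisense lncRNA is transcribed from the strand opposite to its partner, and many start at the partner's own promoter and run the other way, so that both may share one regulatory region. Others overlap the partner's end or lie inside it, where transcription of one strand can interfere with the other and where both RNAs can pair. In low oxygen the transcription factors HIF1 and HIF2 are stabilised and bind a short core, ACGTG or GCGTG, near genes of glucose uptake, glycolysis and vessel growth.

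By the positions of the 2 genes, 169 antisense lncRNAs had a start within 1 kb of the partner's start on the opposite strand. In 58 pairs the 3′ ends overlapped, in 43 the 5′ ends overlapped with starts further apart, in 35 the antisense lncRNA lay inside the partner and in 7 the partner lay inside it. A further 14 pairs lay on opposite strands without overlap. HNRNPU-AS1 was annotated on the same strand as HNRNPU, and positions were not resolved for HLA-F-AS1, ZNRD1-AS1 and KANSL1-AS1.

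The 250 bases upstream of the annotated start of 5 antisense lncRNAs are printed here, because these genes stand for the patterns described below: HIF1A-AS2 and JHDM1D-AS1 rose in RKO and H460, NEXN-AS1 went from 0 counts to clear expression in RKO, VPS9D1-AS1 fell in RKO and H460, and TMPO-AS1 was higher in hypoxic RKO but lower in hypoxic H460. JHDM1D-AS1 was picked after its values were seen. Each reads 5′ to 3′ on the strand of the lncRNA, on GRCh37, and capitals mark the HIF core ACGTG or GCGTG on either strand, so that CACGT and CACGC are matches on the other strand. The windows are chr14:62215808-62216057 (minus) for HIF1A-AS2, chr7:139876811-139877060 (plus) for JHDM1D-AS1, chr1:78355225-78355474 (minus) for NEXN-AS1, chr16:89778014-89778263 (plus) for VPS9D1-AS1 and chr12:98910005-98910254 (minus) for TMPO-AS1. No annotated coding exon touches any of them.
HIF1A-AS2: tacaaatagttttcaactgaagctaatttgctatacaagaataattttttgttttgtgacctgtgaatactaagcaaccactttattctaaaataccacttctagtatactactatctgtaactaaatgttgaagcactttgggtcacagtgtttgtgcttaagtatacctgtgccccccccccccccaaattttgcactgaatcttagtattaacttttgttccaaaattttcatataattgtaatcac
JHDM1D-AS1: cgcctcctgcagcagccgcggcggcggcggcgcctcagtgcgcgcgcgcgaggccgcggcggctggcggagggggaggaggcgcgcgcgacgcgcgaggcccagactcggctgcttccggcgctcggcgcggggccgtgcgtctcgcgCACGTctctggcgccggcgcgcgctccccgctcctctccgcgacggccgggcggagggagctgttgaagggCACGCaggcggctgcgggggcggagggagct
NEXN-AS1: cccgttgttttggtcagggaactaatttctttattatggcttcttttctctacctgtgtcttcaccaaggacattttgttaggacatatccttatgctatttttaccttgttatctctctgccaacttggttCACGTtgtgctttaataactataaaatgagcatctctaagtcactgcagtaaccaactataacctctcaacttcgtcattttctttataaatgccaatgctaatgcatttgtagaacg
VPS9D1-AS1: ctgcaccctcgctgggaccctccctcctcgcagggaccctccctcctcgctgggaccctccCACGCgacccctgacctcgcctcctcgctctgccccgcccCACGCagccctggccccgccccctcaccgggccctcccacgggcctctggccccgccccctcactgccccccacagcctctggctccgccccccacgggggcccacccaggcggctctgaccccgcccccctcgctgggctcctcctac
TMPO-AS1: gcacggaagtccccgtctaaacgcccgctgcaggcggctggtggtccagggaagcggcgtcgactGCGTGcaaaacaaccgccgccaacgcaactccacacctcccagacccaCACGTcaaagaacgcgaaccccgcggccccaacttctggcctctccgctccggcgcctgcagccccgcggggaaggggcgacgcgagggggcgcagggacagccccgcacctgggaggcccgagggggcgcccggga
The window of HIF1A-AS2 held no match and had a GC content of 33.2%. JHDM1D-AS1 held 1 ACGTG, 102 bases before the start, and 1 GCGTG, 31 bases before it, at a GC content of 81.6%. The window of NEXN-AS1 had 1 match at a GC content of 36.4%, and those of VPS9D1-AS1 and TMPO-AS1 had 2 each, at 78.4% and 72.4%.

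Over windows from 250 bases before to 50 after the start, searched on both strands, 59.7% of the 15422 genes over the level rule that had a window held at least 1 of these cores. The core that begins with A was found in 24.9% of the windows and the core that begins with G in 47.7%. A palindrome that matches on both strands was counted as a single window. Among 331 antisense lncRNAs with a window, 62.5% held either. The share was 51.4% for the 72 that were higher in hypoxia in at least 1 line and lower in none, 50% for the 20 higher in at least 2 lines, 64.2% for the 123 lower in at least 1 line and higher in none, and 68.3% for the 120 not called in any line. Both sets of higher members thus lay below the share over all genes, and these are descriptions of the letters in these windows only.

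The antisense lncRNAs were expressed at low levels. The median of their mean RPKM over the 12 libraries was 0.945, against 8.27 for the partners and 7.83 for all genes over the level rule. Under 1 RPKM lay 172 of them and over 5 RPKM lay 40, and 70 of 330 had a higher mean RPKM than the partner. LRRC75A-AS1, which hosts small nucleolar RNAs and is also known as SNHG29, was the highest with a mean of 226.9 RPKM. HNRNPU-AS1 followed at 33.46 RPKM, EPB41L4A-AS1 at 27.95, OIP5-AS1 at 23.62, FGD5-AS1 at 22.51, MMP24-AS1 at 22.38, THAP9-AS1 at 17.42, AGAP2-AS1 at 17.22, DLGAP1-AS1 at 15.75 and PITPNA-AS1 at 13.82 RPKM.

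Levels in normoxia differed between the lines for most members. With a joint edgeR fit to all 12 libraries, a Benjamini-Hochberg adjusted p under 0.1 and a fold over 1.5, 217 of 334 antisense lncRNAs (65%) differed between RKO and A549, where 60.2% of all 15595 genes did. Between RKO and H460 237 (71%) differed against 61.9% of all genes, and between A549 and H460 199 (59.6%) against 52.1%. Of the 237, 205 were lower in RKO, and of the 217, 178 were. The level rule let members enter through 1 line alone, and within RKO 219 met the level filter, within A549 273 and within H460 285. Direction was not counted over all genes. The median log2 difference of RKO from H460 was -1.35 for members and -0.09 for all genes, and from A549 -0.95 and -0.08. DNAH17-AS1, which lies inside the gene of an axonemal dynein chain, was at 28.0 and 39.3 RPKM in normoxic H460, 0.599 and 0.531 in A549 and 0.113 and 0.0736 in RKO. ELFN1-AS1 was at 9.54 and 13.8 RPKM in normoxic RKO and 16.9 and 18.7 in H460, but at 0 and 0.0259 in A549. CDKN2B-AS1, also known as ANRIL, was read almost only in RKO, at 0.225 and 0.264 RPKM in normoxia, while no normoxia library of A549 or H460 exceeded 0.0119. DPP10-AS1, chosen after its values were seen, was at 26.2 and 24.6 RPKM in normoxic H460 and at 0 in all 4 normoxia libraries of the other lines.

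Within each line, hypoxia was compared with normoxia by edgeR's quasi-likelihood test over all genes with over 0.5 CPM in at least 2 of the line's 4 libraries. A gene is called higher or lower where the adjusted p was under 0.1 and the fold over 1.5, the thresholds of the study. In bulk RNA, fewer cells expressing a gene and less of its RNA per cell cannot be told apart. In RKO 57 of 219 antisense lncRNAs tested (26.0%) rose in hypoxia, where 18.8% of all genes did, and 29 (13.2%) fell, where 15.1% of all genes did. Their median log2 fold change was 0.22, against 0.01 for all genes. Leaving out 1 library moved these counts: without hypoxia replicate 2 there were 34 higher and 40 lower with a median of -0.03, without hypoxia replicate 1 40 and 13, without normoxia replicate 1 43 and 12, and without normoxia replicate 2 41 and 13. By construction, the 22 members that passed the level filter through the hypoxia libraries alone drop out of the test when a hypoxia library is left out.

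In A549 6 of 273 (2.2%) rose, where 2.22% of all genes did, and 0 fell, where 0.456% of all genes did. With the replicate number as a block 26 were higher and 12 lower (8.34% and 5.07% of all genes). Before adjustment 36 had p under 0.05 by edgeR, 13 of them lower, and DESeq2 called 1 lower. The 6 were CALML3-AS1, NPSR1-AS1, NR2F2-AS1, SLC2A1-AS1, TM4SF1-AS1 and UPK1A-AS1, of which CALML3-AS1 and NPSR1-AS1 are named only because the count is small. These counts rested on the A549 hypoxia libraries, with 0 higher and 0 lower without hypoxia replicate 2 and 13 higher and 5 lower without hypoxia replicate 1. CALML3-AS1, NPSR1-AS1, NR2F2-AS1 and UPK1A-AS1 met the level filter in the hypoxia libraries only and are not tested when 1 of them is left out. A549 had the widest spread between replicates, with a biological coefficient of variation of 18.9%, against 15.0% for RKO and 7.91% for H460.

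In H460 the order was turned round. There 51 of 285 antisense lncRNAs (17.9%) rose, where 24.6% of all genes did, and 130 (45.6%) fell, where 27.3% of all genes did. Their median log2 fold change was -0.51, against -0.04 for all genes. Scaling by library size in place of the trimmed mean of M-values (TMM) moved the median of all H460 genes by -0.35 and gave 36 higher and 171 lower, and without normoxia replicate 2 there were 49 higher and 78 lower. By construction, the 48 members that passed the level filter through the normoxia libraries alone drop out when a normoxia library is left out. The 285 partners tested in H460 moved the other way, with 87 higher (30.5%) and 59 lower (20.7%) and a median of 0.17. Long intergenic noncoding RNAs, genes named LINC and a number, had 40 higher and 29 lower of 126 in H460, a median of 0.01. In RKO 36 of 94 LINC genes were higher and 6 lower. Of 262 partners in RKO 44 were higher (16.8%) and 39 lower (14.9%), near the 18.8% and 15.1% of all genes.

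These shares varied with the level of expression. Among genes with a mean under 1 CPM in H460, 8.75% of 80 antisense lncRNAs were higher and 57.5% lower, and over all genes of that level 19.0% were higher and 44.1% lower. Between 4 and 16 CPM in H460, 43.0% of 79 members and 33.8% of all genes were lower, and over 16 CPM 25% of 28 members and 20.6% of all genes were. In RKO genes under 1 CPM were called higher more often whether antisense or not, at 30.8% of 52 members and 36.1% of all genes. Some members entered the test through 1 condition only. Of the 22 in RKO that passed the level filter in the hypoxia libraries only, 17 were called higher, and in H460 48 passed in the normoxia libraries only, of which 43 were called lower. Of those with a mean of at least 50 counts in RKO, 37 of 144 were higher (25.7%, all genes of that depth 17.6%) and 20 lower (13.9%, all genes 15.5%). For A549 there were 2 and 0 of 190, where 2.18% and 0.459% of all genes were called, and for H460 35 (20.3%, all genes 25.0%) and 70 (40.7%, all genes 25.3%) of 172.

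**Figure D1:**
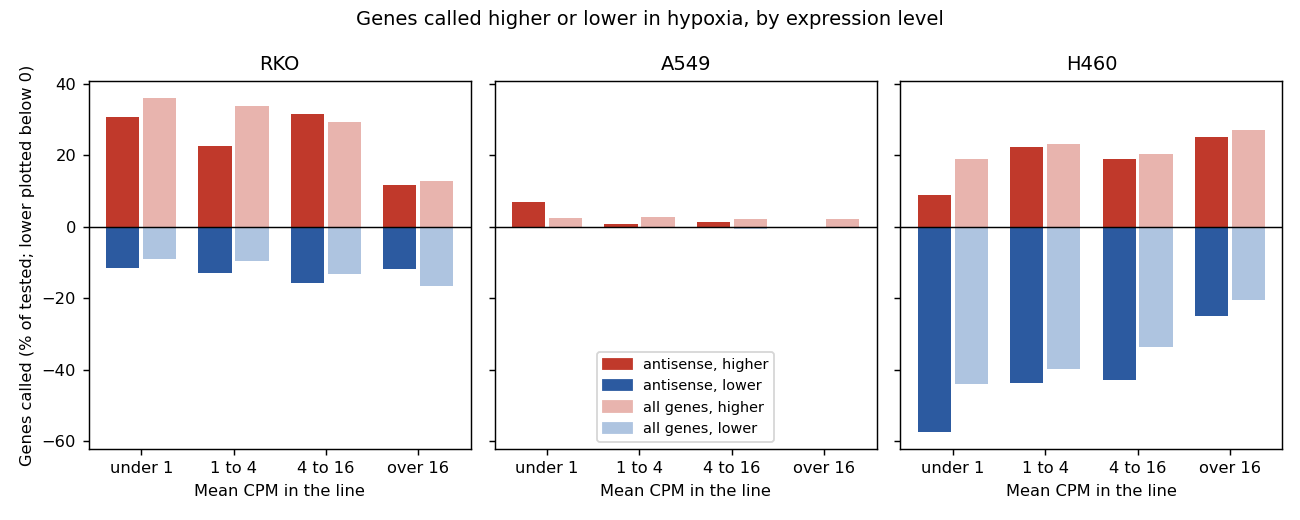
Share of antisense lncRNAs (dark bars) and of all tested genes (pale bars) called higher (above 0) or lower (below 0) in hypoxia, in percent of those tested, by mean CPM in each cell line. In H460 the dark bars for lower genes reach 57.5% under 1 CPM and 25% over 16 CPM, and the pale bars 44.1% and 20.6%.

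Over all lines, 194 members were tested in every line, 58 in 2 lines, 79 in 1 line (5 in RKO, 31 in A549, 43 in H460) and 3 in none. A call was made in at least 1 line for 214. Higher in 1 line were 70, in 2 lines 19 and in all 3 lines 2, and lower in 1 line were 119, in 2 lines 20 and in all 3 lines 0. With the replicate block further members were called in A549, VPS9D1-AS1 and CCDC183-AS1 among those lower. These counts were not made again with the block, and they were not made over all genes in the 3 lines. For RKO and H460, 9.31% of members and 8.79% of all genes were higher in both. Lower in both were 9.8% of members and 9.19% of all genes, so these shares were near each other. For the effect averaged over lines in the joint fit, 52 of 334 were higher, where 14.8% of all genes were, and 55 lower, where 11.5% of all genes were.

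SLC2A1-AS1 and TM4SF1-AS1 were the 2 antisense lncRNAs that rose in all 3 lines. With the replicate block HIF1A-AS2, OSER1-AS1 and PCOLCE-AS1 also rose in A549, at 2.00, 1.14 and 1.71 on the log2 scale (edgeR adjusted p = 0.00104, 0.00461 and 0.00169). SLC2A1-AS1 (chr1:43424720-43449029, plus strand, GRCh37) starts 127 bases inside SLC2A1, which encodes the glucose transporter GLUT1, and shares 128 bases with it. In RKO it was at 0.0874 and 0.0549 CPM in normoxia and 0.898 and 0.677 CPM in hypoxia, in A549 at 0.758 and 0.476 against 1.76 and 2.95 CPM, and in H460 at 2.16 and 2.68 against 7.12 and 7.59 CPM. The hypoxia libraries were above the normoxia libraries in each line, although RKO stayed below the normoxic level of H460. In RKO SLC2A1-AS1 met the level filter through the hypoxia libraries alone. Its RKO change is therefore not tested when a hypoxia library is left out. RKO had a log2 fold change of 3.42 ± 0.60 (SE), A549 one of 1.92 ± 0.44 and H460 one of 1.60 ± 0.19, with adjusted p of 0.00169, 0.0814 and 1.06e-05 by edgeR. SLC2A1 itself rose by 1.73 ± 0.15, 1.78 ± 0.22 and 1.12 ± 0.16. The antisense counts were 0.182%, 0.394% and 1.2% of the SLC2A1 counts, and the part of reads assigned to the wrong strand was not tested. The A549 call was lost without hypoxia replicate 2 (1.51, adjusted p = 0.166) and without normoxia replicate 2 (1.63, adjusted p = 0.171).

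TM4SF1-AS1 (chr3:149095565-149104370, plus strand) starts within the first bases of TM4SF1, which encodes a small membrane protein of the cell surface. In RKO it had 0 counts in both normoxia libraries and 23 and 22 counts in hypoxia, at least 14.3-fold higher over a floor of 3 counts in the normoxia group. In A549 it was at 1.86 and 2.13 CPM in normoxia and 4.06 and 9.48 in hypoxia, and in H460 at 2.42 and 3.59 against 6.05 and 7.87 CPM. The groups did not overlap in any line. In RKO TM4SF1-AS1 met the level filter through the hypoxia libraries alone and is not tested when a hypoxia library is left out. The log2 fold change was 1.76 ± 0.42 in A549 (edgeR adjusted p = 0.0904) and 1.20 ± 0.22 in H460 (0.000385). TM4SF1 rose in RKO by 1.66 ± 0.18 and was not called in the other lines, where its log2 fold changes were -0.01 ± 0.21 in A549 and 0.07 ± 0.12 in H460. The ratio of antisense to partner rose in RKO (3.80 ± 0.67, limma adjusted p = 0.00172) and H460 (1.16 ± 0.29, 0.0028). Without hypoxia replicate 2 the A549 value was 1.02 with an adjusted p of 0.565, and without normoxia replicate 1 it was 1.66 with 0.128.

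HIF1A-AS2 overlaps the 3′ end of HIF1A, the oxygen-regulated subunit of HIF1, by 1221 bases (chr14:62213757-62215807, minus strand). It was at 0.262 and 0.220 CPM in normoxic RKO and 7.65 and 3.58 CPM in hypoxic RKO, a log2 rise of 4.53 ± 0.49 (edgeR adjusted p = 0.000168). In H460 it went from 0.982 and 0.595 CPM to 7.01 and 8.29 CPM, a rise of 3.30 ± 0.25 (3e-07). A549 had 0.196 and 0.526 CPM in normoxia and 1.12 and 1.67 in hypoxia, not called at 1.94 ± 0.52 (adjusted p = 0.125) but called with the replicate block. The hypoxia libraries were thus above the normoxia libraries in all lines. In RKO HIF1A-AS2 met the level filter through the hypoxia libraries alone and is not tested when a hypoxia library is left out. HIF1A mRNA fell by 1.75 ± 0.16 in RKO and by 1.16 ± 0.23 in A549, and in H460 its log2 fold change was -0.14 ± 0.11. The ratio of HIF1A-AS2 to HIF1A rose in all 3 lines, by 6.12 ± 0.46, 3.23 ± 0.56 and 3.44 ± 0.30 on the log2 scale, with limma adjusted p of 1.96e-05, 0.0767 and 3.75e-07. HIF1A-AS1, ENO1-AS1, BHLHE40-AS1 and P4HA2-AS1 did not meet the level rule.

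UPK1A-AS1, inside the uroplakin gene UPK1A (chr19:36158850-36164193, minus strand), had the largest called rise in H460. It was at 0.0654 and 0.135 CPM in normoxia and 11.1 and 8.89 CPM in hypoxia, 6.53 ± 0.32 on the log2 scale (edgeR adjusted p = 1.07e-08). UPK1A, a membrane plaque protein of the urothelium, moved with it, from 0.164 and 0.135 CPM to 10.8 and 8.92 CPM (6.02 ± 0.29). Antisense and partner counts were nearly equal over the H460 libraries, at 101%. In A549 the antisense lncRNA went from 0.171 and 0.150 CPM to 1.05 and 2.19 (3.30 ± 0.55) and UPK1A rose by 4.36 ± 0.61. In both lung lines UPK1A-AS1 met the level filter through the hypoxia libraries alone and is not tested when a hypoxia library is left out. The pair was not tested in RKO.

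Several other members rose in 2 lines. Of these, CACTIN-AS1 met the level filter in RKO through the hypoxia libraries alone. CACTIN-AS1, which overlaps the 3′ end of a spliceosome-associated factor, went from 0.291 and 0.247 to 2.87 and 2.51 CPM in RKO (3.31 ± 0.41) and from 1.18 and 1.57 to 4.44 and 5.61 CPM in H460 (1.86 ± 0.24), while CACTIN was not called in either. NR2F2-AS1, opposite the nuclear receptor gene NR2F2 (COUP-TFII), rose by 2.99 ± 0.45 in A549 and 3.11 ± 0.35 in H460, from 0.244 and 0.175 to 1.66 and 1.73 CPM in A549. PCOLCE-AS1, opposite a collagen-processing enhancer gene, rose by 2.41 ± 0.50 in RKO and 3.61 ± 0.22 in H460, with PCOLCE rising by 0.85 ± 0.20 and 1.35 ± 0.17. SPAG5-AS1 (2.99 ± 0.66 and 2.42 ± 0.47), HLA-F-AS1 (1.54 ± 0.20 and 1.47 ± 0.19) and OSER1-AS1 (1.40 ± 0.51 and 1.74 ± 0.18) rose in RKO and H460 as well, the last not called in RKO without normoxia replicate 2 (0.915, adjusted p = 0.286). JHDM1D-AS1 went from 4.40 and 2.47 to 7.65 and 7.22 CPM in RKO (1.11 ± 0.31) and from 1.96 and 1.65 to 3.14 and 3.22 CPM in H460 (0.82 ± 0.23). Its partner KDM7A, a histone demethylase that uses oxygen, rose by 1.54 ± 0.29 and 2.22 ± 0.10.

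NEXN-AS1 had 0 counts in both normoxic RKO libraries and 31 and 45 counts in hypoxia, at least 24.1-fold higher over a floor of 3 counts. In A549 it was at 1.66 and 1.75 CPM in normoxia and 2.32 and 1.46 in hypoxia (0.15 ± 0.37), so that the groups overlapped there. Its partner NEXN, an actin-binding gene, was not tested in RKO. Both NEXN-AS1 and CSTF3-AS1 met the level filter in RKO through the hypoxia libraries alone. CSTF3-AS1, which starts beside a subunit of the cleavage stimulation factor, rose in RKO from 0.116 and 0.0824 to 1.62 and 1.52 CPM (3.94 ± 0.51) while CSTF3 was at -0.09 ± 0.18. MFI2-AS1, inside the melanotransferrin gene, rose in RKO from 3.29 and 4.25 to 16.1 and 15.3 CPM (2.06 ± 0.24) together with MFI2 (1.56 ± 0.17), and in A549 and H460 it was at 0.33 ± 0.30 and 0.42 ± 0.20.

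**Figure D2:**
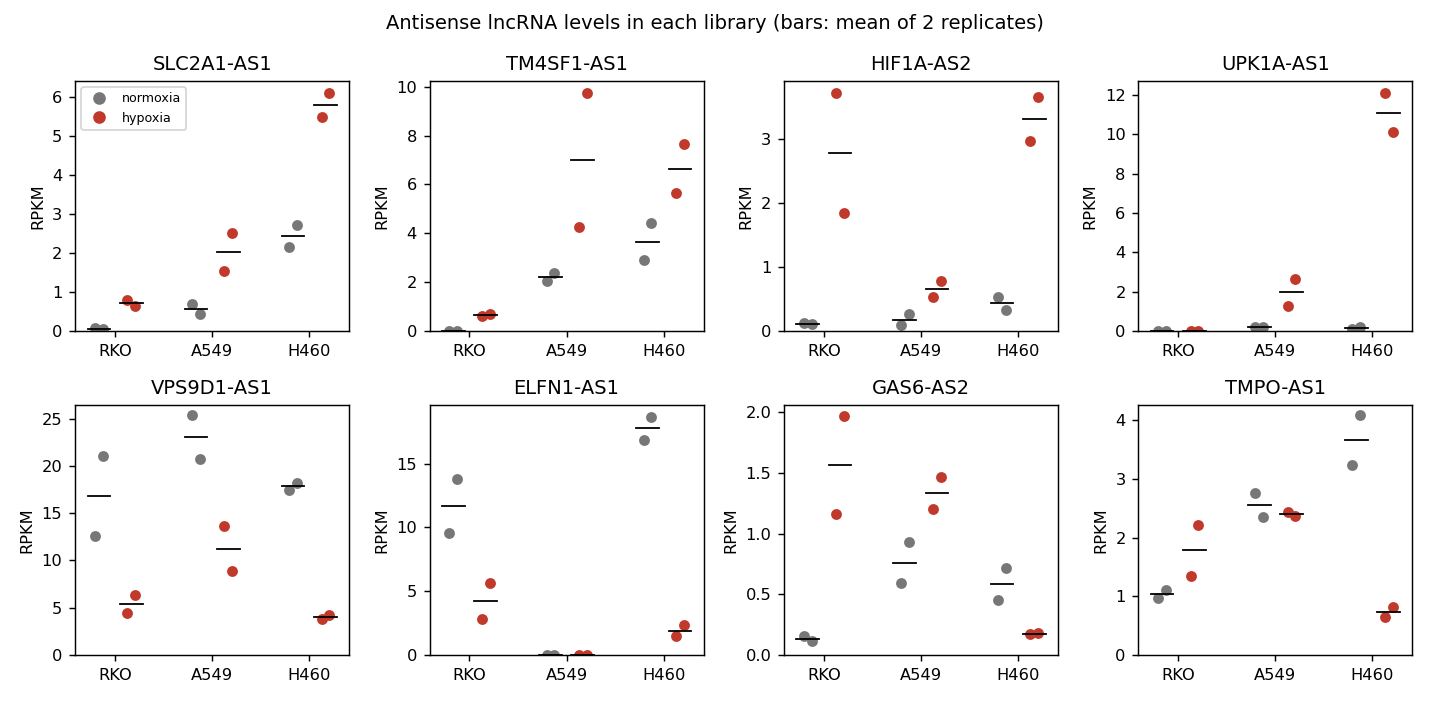
RPKM of 8 antisense lncRNAs in each library (points; grey normoxia, red hypoxia) with the mean of 2 replicates (bars), by cell line. HIF1A-AS2 in RKO is at 0.122 and 0.106 RPKM in normoxia and 3.72 and 1.85 in hypoxia, VPS9D1-AS1 and ELFN1-AS1 are lower in hypoxia in RKO and H460, and GAS6-AS2 and TMPO-AS1 are higher in hypoxic RKO and lower in hypoxic H460.

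VPS9D1-AS1 lies inside VPS9D1 (chr16:89778264-89784573, plus strand) and was among the 20 members that fell in 2 lines. It was at 23.1 and 37.4 CPM in normoxic RKO and 7.72 and 10.5 in hypoxia (-1.74 ± 0.26, edgeR adjusted p = 0.000732). In H460 it went from 27.4 and 27.9 to 7.77 and 8.22 CPM (-1.79 ± 0.12, 8.94e-08), and A549 had 43.6 and 34.8 against 24.3 and 16.3 CPM (-0.95 ± 0.25, 0.113). With the replicate block the A549 fall was called too (-0.97, edgeR adjusted p = 0.000118). No hypoxia library reached a normoxia library of its line. VPS9D1 rose by 1.08 ± 0.27 in RKO and was at 0.23 ± 0.12 in H460.

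The other members that fell in 2 lines all did so in RKO and H460. ELFN1-AS1 dropped from 10.1 and 14.1 to 2.82 and 5.36 CPM in RKO (-1.57 ± 0.32) and from 15.2 and 16.5 to 1.76 and 2.58 CPM in H460 (-2.85 ± 0.18). RNASEH1-AS1, which starts 15 bases from RNASEH1, the nuclease of RNA-DNA hybrids, changed by -1.31 ± 0.28 and -1.67 ± 0.15, and RNASEH1 by -1.04 ± 0.16 and -1.36 ± 0.10. The ratio of this pair was not called changed in any line. MBNL1-AS1, opposite the splicing regulator MBNL1, changed by -1.61 ± 0.40 and -1.26 ± 0.34, whereas MBNL1 fell in RKO (-0.66 ± 0.15) and was at 0.33 ± 0.09 in H460. USP2-AS1 (-2.44 ± 0.47 and -2.19 ± 0.71), MAN1B1-AS1 (-2.06 ± 0.41 and -1.37 ± 0.32) and FAM222A-AS1 (-1.20 ± 0.31 and -3.97 ± 0.50) fell too. DGUOK-AS1 (-1.62 ± 0.48 and -2.06 ± 0.35) and C1QTNF9B-AS1 (-1.28 ± 0.40 and -1.28 ± 0.39) were not called in RKO without hypoxia replicate 1, at -1.59 (adjusted p = 0.102) and -0.96 (0.154).

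In H460 the falls included both well-expressed members and members at low level. DNAH17-AS1 went from 129 and 178 to 26.7 and 41.4 CPM (-2.17 ± 0.19) with DNAH17 at -0.06 ± 0.18. PRKCQ-AS1, beside a protein kinase C gene of T cell signalling, went from 1.93 and 2.19 to 0.153 and 0.127 CPM (-3.85 ± 0.39). CEBPA-AS1 fell with CEBPA, a myeloid and liver transcription factor (-3.09 ± 0.37 and -2.31 ± 0.24). SOX9-AS1 and SOX9, a developmental transcription factor, rose together (2.48 ± 0.24 and 1.42 ± 0.10), from 0.785 and 0.784 to 4.71 and 4.11 CPM for the antisense lncRNA. Of the most abundant members, HNRNPU-AS1 rose in H460 from 277 and 303 to 540.3 and 522 CPM (0.87 ± 0.09), a call lost with library size scaling (0.52). LRRC75A-AS1 was not called in any line, with log2 fold changes of -0.10 ± 0.18, 0.15 ± 0.21 and 0.44 ± 0.09, and neither was OIP5-AS1 (0.52 ± 0.17, 0.26 ± 0.20 and 0.13 ± 0.09).

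Of 204 antisense lncRNAs tested in both RKO and H460, 19 (9.31%) were higher in both and 20 (9.8%) lower in both, near the 8.79% and 9.19% of all genes. Another 15 (7.35%) went up in RKO and down in H460, and over all 12135 genes tested in both lines 283 (2.33%) did. PRKAG2-AS1 alone went the other way (0.49%, all genes 0.494%). These shares were not split by level, and most members were low. Under 1 CPM 36.1% of all RKO genes were higher and 44.1% of all H460 genes lower. Over 16 CPM these were 12.9% and 20.6%. Whether level accounts for the difference was not tested. The 15 included ASB16-AS1, BCDIN3D-AS1, GAS6-AS2, ITPR1-AS1, NCK1-AS1, PAXBP1-AS1, PSMD5-AS1, SDCBP2-AS1, SLFNL1-AS1, SNAI3-AS1, ST3GAL4-AS1, TMPO-AS1, TTN-AS1 and ZBED3-AS1. Most of the 16 called in opposite directions lost a call when a library was left out. ASB16-AS1, GAS6-AS2 and SNAI3-AS1 lost neither call in the fits that tested them. GAS6-AS2 passed the level filter in RKO through the hypoxia libraries alone and in H460 through the normoxia libraries alone. It is not tested when any of those libraries is left out. GAS6-AS2, which starts 104 bases from GAS6, a ligand of the TAM receptor kinases, went from 0.320 and 0.220 to 2.26 and 3.61 CPM in RKO (3.43 ± 0.45) and from 0.785 and 1.22 to 0.383 and 0.382 CPM in H460 (-1.40 ± 0.39). ASB16-AS1 went from 6.82 and 10.3 to 15.5 and 19.1 CPM in RKO (1.02 ± 0.25) and from 12.9 and 12.8 to 4.71 and 4.81 CPM in H460 (-1.43 ± 0.14). SLFNL1-AS1 dropped from 44.4 and 51.0 to 11.1 and 10.6 CPM in H460 (-2.14 ± 0.11) and rose by 0.95 ± 0.32 in RKO, not called without normoxia replicate 1 (0.542, adjusted p = 0.275).

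TMPO-AS1 starts inside TMPO, which encodes the lamina-associated polypeptide 2 (chr12:98906751-98910004, minus strand). It was at 3.23 and 3.54 CPM in normoxic RKO and 4.26 and 6.63 in hypoxia (0.68 ± 0.30, edgeR adjusted p = 0.0976), and in H460 at 9.16 and 11.3 against 2.37 and 2.84 CPM (-1.97 ± 0.18, 1.67e-06). The RKO call was lost without hypoxia replicate 2 (0.349, adjusted p = 0.441), without normoxia replicate 1 (0.62, 0.329) and without normoxia replicate 2 (0.747, 0.219). TMPO fell in H460 (-1.48 ± 0.09) and was at -0.47 ± 0.15 in RKO. ITPR1-AS1 followed ITPR1, the inositol trisphosphate receptor, in both directions: 2.70 ± 0.49 and 3.17 ± 0.29 in RKO, -0.67 ± 0.32 and -1.09 ± 0.09 in H460. Its H460 call was lost without normoxia replicate 2 (-0.44, adjusted p = 0.368) and without either hypoxia replicate (-0.66 and -0.64, adjusted p = 0.183 and 0.207).

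**Figure D3:**
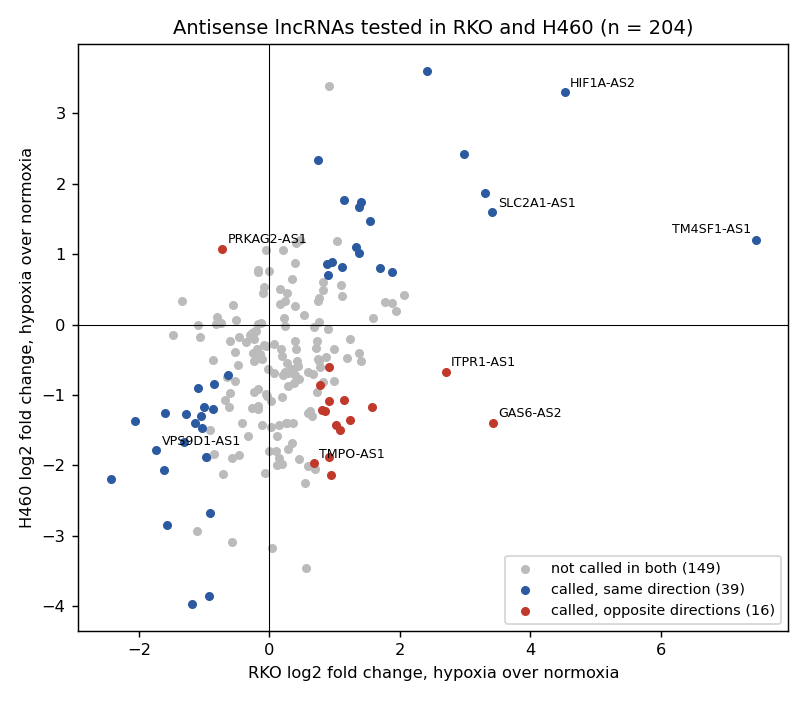
Log2 fold change in hypoxia in RKO (horizontal) and H460 (vertical) of the 204 antisense lncRNAs tested in both lines. Blue points are called in the same direction in both (39), red points in opposite directions (16) and grey points are not called in both (149), and the position of TM4SF1-AS1 rests on a normoxia count of 0 in RKO.

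The effect of hypoxia was compared between lines in the joint fit, where a difference is an interaction term with an adjusted p under 0.1 by edgeR. Between RKO and A549 34 members (10.2%) differed, where 14.6% of all genes did. RKO and H460 differed for 111 members (33.2%), where 37.6% of all genes differed, and A549 and H460 for 85 (25.4%), where 36% did. The share of members that differed was therefore below that of all genes in every comparison, but the direction was not even. Of the 111, 99 had the higher effect in RKO, and the median difference of members between RKO and H460 was 0.76, against 0.10 for all genes. Of the 85, 72 had the higher effect in A549. Direction was not counted over all genes, and these values were not split by level. These 3 comparisons share libraries. The 34 became 13 without RKO normoxia replicate 1, 20 without RKO normoxia replicate 2 or A549 normoxia replicate 2 and 17 without A549 hypoxia replicate 1, and 54 with the replicate block. The 111 became 71 without H460 hypoxia replicate 1, and the 85 became 44 without it, 46 without H460 normoxia replicate 2 and 55 without A549 hypoxia replicate 1.

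Both genes of a pair were tested for 195 pairs in RKO, for 243 in A549 and for 259 in H460. Of the RKO pairs, 17 were called in the same direction (13 both higher, 4 both lower), 8.72% of pairs, where 7.43% of all 1858 pairs of overlapping or neighbouring genes on opposite strands were. Another 13 (6.67%) were called in opposite directions, where 4.14% of all such pairs were. In H460 57 (22.0%) were called in the same direction (26 and 31), where 16% of all pairs were, and 28 (10.8%) in opposite directions, where 9.57% were. Of these 28, 24 had the antisense lncRNA lower and the partner higher. This split was not made over all opposite-strand pairs. Taken singly, 45.6% of H460 members were lower and 17.9% higher, and 30.5% of partners were higher and 20.7% lower. In A549 2 pairs went the same way, where 0.242% of all pairs did, and 0 went opposite ways, where 0% did. Those 2 were SLC2A1-AS1 and UPK1A-AS1 with their partners. The antisense lncRNA alone was called in 42 pairs in RKO, 2 in A549 and 75 in H460, and the partner alone in 38, 7 and 41. Calls of a single gene of a pair were not counted over all opposite-strand pairs. In RKO the same-direction pairs were 9 without normoxia replicate 2 and 8 without hypoxia replicate 1, and the opposite pairs 6 without hypoxia replicate 1 or normoxia replicate 1. In A549 they were 0 and 0 without hypoxia replicate 2, 1 and 3 without hypoxia replicate 1, and 1 and 1 without normoxia replicate 2. With the replicate block A549 had 7 pairs in the same and 4 in opposite directions.

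The pairs were then set apart by position. Among pairs with starts within 1 kb, 11 of 114 in RKO and 38 of 149 in H460 were called in the same direction and 4 and 8 in opposite directions. Among pairs with overlapping 3′ ends, 1 of 35 in RKO and 7 of 42 in H460 went the same way and 5 and 9 opposite ways. With overlapping 5′ ends, 2 of 15 in RKO and 6 of 29 in H460 went the same way and 1 and 5 opposite ways. Over all opposite-strand pairs, 7.43% in RKO and 16% in H460 went the same way and 4.14% and 9.57% opposite ways. Those shares were not split by position. Across pairs with starts within 1 kb, Pearson's r between the 2 log2 fold changes was 0.39 for RKO, 0.47 for A549 and 0.43 for H460 (n = 114, 141 and 149 pairs). With overlapping 3′ ends it was -0.36, -0.34 and 0.21 (n = 35, 37 and 42). With overlapping 5′ ends it was 0.043 in A549 and -0.0009 in H460 (n = 23 and 29). In pairs where the antisense lncRNA lay inside the partner it was 0.69 in A549 and 0.71 in H460 (n = 23 and 22), with UPK1A-AS1 far from the other points. These values are descriptions across pairs measured in the same libraries, and pairs are not independent replicates.

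**Figure D4:**
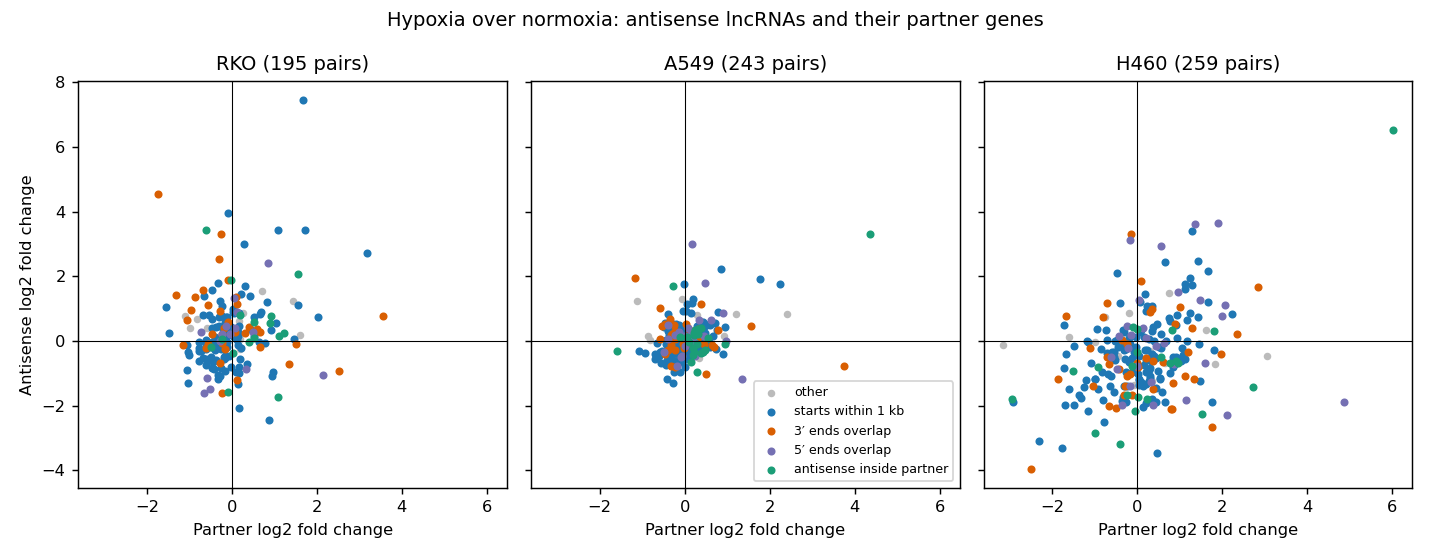
Log2 fold change of the antisense lncRNA (vertical) against that of its partner (horizontal) in each line, 1 point per pair, coloured by the position of the 2 genes. Pairs with starts within 1 kb have r of 0.39, 0.47 and 0.43, UPK1A-AS1 is at the upper right in A549 and H460, and TM4SF1-AS1, at the top of RKO, rests on a normoxia count of 0.

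The ratio of antisense to partner counts was tested with limma over all such pairs. It changed in 84 of 195 pairs in RKO (43.1%; 54 up, 30 down), where it changed in 42.4% of all opposite-strand pairs. In A549 it changed in 3 of 243 pairs (1.23%), where it did in 0.531% of all pairs, and in H460 in 162 of 259 (62.5%; 41 up, 121 down), where it did in 61.1%. The shares were near those of all pairs in RKO and H460. Without 1 library the count was 48 or 50 in RKO when normoxia replicate 2 or 1 was left out. In A549 it was 5 or 8 without normoxia replicate 1 or 2, 10 or 1 without hypoxia replicate 1 or 2, and 27 with the replicate block. HIF1A-AS2 and CCDC183-AS1 were the pairs with a change in all 3 lines, in opposite directions. The third A549 pair was NR2F2-AS1, whose ratio rose by 2.77 ± 0.41.

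CCDC183-AS1 overlaps CCDC183, a coiled-coil gene, at the 3′ end by 3815 bases (chr9:139698379-139703300, minus strand). In H460 it went from 4.48 and 5.49 to 0.689 and 0.861 CPM (-2.67 ± 0.25) while CCDC183 went from 2.85 and 2.62 to 9.08 and 9.31 CPM (1.75 ± 0.17). The antisense lncRNA was the more abundant of the pair in normoxia and the less abundant in hypoxia. In RKO the values were -0.92 ± 0.37 and 2.52 ± 0.39, and in A549 -0.76 ± 0.32, not called, and 3.76 ± 0.39. With the replicate block the A549 fall was called (-0.77, edgeR adjusted p = 0.0545). RKO showed a ratio change of -3.47 ± 0.55, A549 of -4.43 ± 0.50 and H460 of -4.40 ± 0.28, with limma adjusted p of 0.00098, 0.0368 and 3.25e-08. Its RKO call was lost without normoxia replicate 2 (-0.47, edgeR adjusted p = 0.467), without hypoxia replicate 1 (-0.48, 0.337) and with library size scaling (-0.83, 0.123).

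Other H460 pairs parted in the same way. ARRDC3-AS1 went from 1.70 and 2.87 to 0.306 and 0.606 CPM (-2.29 ± 0.39) and ARRDC3, an arrestin-like adaptor, from 49.99 and 52.9 to 227 and 221 CPM (2.12 ± 0.09). ZSWIM8-AS1, inside the gene of a ubiquitin ligase receptor, went from 11.9 and 16.3 to 2.57 and 3.31 CPM (-2.25 ± 0.20) and ZSWIM8 rose by 1.53 ± 0.09. SDCBP2-AS1 fell by 1.88 ± 0.24 and SDCBP2, a syntenin family gene, rose from 0.131 and 0.0270 to 2.57 and 1.98 CPM (4.85 ± 0.49). LPP-AS2 (-1.88 ± 0.37, LPP 1.77 ± 0.09) and FOXN3-AS1 (-1.43 ± 0.41, FOXN3 2.72 ± 0.12) also parted from partners of cell adhesion and of transcription. In RKO the opposite pairs with the antisense lncRNA higher included KIF9-AS1 (1.41 ± 0.35, KIF9 -1.32 ± 0.28) and PSMD6-AS2 (0.95 ± 0.32, PSMD6 -0.97 ± 0.15), the latter not called without normoxia replicate 1 (0.697, adjusted p = 0.261) or hypoxia replicate 1 (0.683, 0.169). FAM13A-AS1 rose in RKO (1.37 ± 0.29) where FAM13A fell (-0.87 ± 0.18), and in H460 both rose (1.67 ± 0.32 and 2.84 ± 0.09). CDKN2B-AS1 was at 0.19 ± 0.37 in RKO while CDKN2B, a cyclin-dependent kinase inhibitor, rose by 1.61 ± 0.17.

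Some pairs overlap in their genomic spans, introns included, and overlap of exons was not computed. In such pairs the antisense counts were a median of 4.45% of the partner's for RKO, 4.27% for A549 and 6.42% for H460. They were under 1% in 20 of 110, 19 of 140 and 25 of 155 such pairs, of which 2, 1 and 3 were called in the same direction. Counting used the strand of the reads, and the part that reads from the partner's strand have in these low values was not tested.

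By what the partner does, lists of partners were compared. The list for oxygen or nutrient uptake held 7 antisense lncRNAs (FAM13A-AS1, HIF1A-AS2, JHDM1D-AS1, KDM4A-AS1, LOXL1-AS1, SLC2A1-AS1 and VLDLR-AS1). It is not complete, and JMJD1C-AS1 and SLC16A1-AS1, for example, are not on it. Of the 7, 4 of 6 tested were higher in RKO and 0 lower, 1 of 6 in A549, and in H460 4 of 7 were higher and 1 lower. With the replicate block HIF1A-AS2 was called higher in A549 too. VLDLR-AS1 was at -0.29 ± 0.33 in H460 while VLDLR, a lipoprotein receptor, rose by 1.81 ± 0.09. Of 16 with developmental transcription factors as partners, 4 were higher and 6 lower of 13 in H460, and 2 higher and 1 lower of 11 in RKO. Of 10 with cell cycle or DNA repair partners, 1 was higher and 4 lower of 9 in H460. Of 13 with partners in protein synthesis, 2 were higher and 4 lower of 12 in H460, and in RKO 3 were higher and 1 lower of 12 while 6 of the 13 partners were lower. These lists are short and were chosen, and other members could be added to them. Their counts stand beside 26.0% higher and 13.2% lower over all members in RKO (18.8% and 15.1% of all genes), 2.2% higher in A549 (2.22% of all genes) and 17.9% higher and 45.6% lower in H460 (24.6% and 27.3% of all genes).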

How the data were processed

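Counts per gene for 12 polyadenylated, strand-specific RNA-seq libraries (3 lines, normoxia or 24 h of 1% oxygen, 2 biological replicates each) were taken as deposited. Per the study's methods, the authors trimmed reads with Fastx, aligned them with TopHat2 2.0.13 to GRCh37/hg19, filtered them on mapping quality, flagged duplicates with Picard 1.129 and counted reads per gene with HTSeq 0.6.1 on the reverse strand. The deposited RPKM values, made by the authors from these reads, served for levels between genes and lines, and CPM within a line were computed here with TMM factors. Library totals, given with the results, limit low genes most, and p-values measure the spread between 2 replicates.

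Hypoxia was tested per line with edgeR 4.0.16 (quasi-likelihood, TMM, over 0.5 CPM in 2 of 4 libraries), and averages and line differences in 1 fit of 6 groups (R 4.3.3). Ratios were tested with limma 3.58.1 (trend) on log2((antisense + 0.5)/(partner + 0.5)) over all opposite-strand pairs in the annotation. Adjustment (Benjamini-Hochberg) ran over all genes or pairs. SE are those of the fits. Scripts were tested on simulated counts. Alternatives were DESeq2 1.42.0, other scalings, filters, folds and fits, limma on log2 RPKM, a replicate block and leaving out each library. Same-numbered libraries of a line deviated together across genes (r = 0.339 in RKO, 0.343 in A549 and 0.115 in H460). The labels do not say what a number shares. A block by replicate number was therefore fitted. Its value stands beside main counts (members called, pairs with both genes called, changed ratios, line differences) it moved by over 1.5 times. Counts drawn from these calls were not made again with the block. They include members over several lines, by depth or by partner list, and pairs with only the antisense lncRNA or the partner called. Positions, starts and promoter sequence came from GRCh37 and its annotation.

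Named members were those called in the same direction in 2 or more lines (up to 10 each way), those called in opposite directions in 2 lines, per line the 5 largest changes each way with at least 50 counts, 5 pairs called the same and 5 called opposite ways and the 5 largest ratio changes, the 10 highest by RPKM, a list of known hypoxia or cancer antisense genes, and the 3 smallest p for each line difference. Space limited which were printed, and 1 is not reported here. The members and lists were chosen with earlier results of these data known.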

Additional observations from a re-analysis of the deposited data

Results flagged for a closer look

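The hypoxia effect differed between lines (interaction term, edgeR adjusted p under 0.1) for 34 antisense lncRNAs when RKO was set against A549, for 111 when RKO was set against H460 and for 85 when A549 was. Without 1 library these counts ran from 13 to 43, from 71 to 118 and from 44 to 94. The differences below are of log2 fold changes, each the first line minus the second, for the 3 genes with the smallest p in each comparison.

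Between RKO and A549, CSTF3-AS1 differed by 3.97 (adjusted p = 0.00436, edgeR), MFI2-AS1 by 1.78 (0.00917) and NEXN-AS1 by 7.97 (0.00245). The size for NEXN-AS1 depends on the prior count, since both normoxic RKO libraries were at 0. Between RKO and H460, GAS6-AS2 differed by 4.86 (0.000124), TMPO-AS1 by 2.70 (0.000146) and ZSWIM8-AS1 by 2.85 (0.000236). Between A549 and H460, PRKCQ-AS1 differed by 3.27 (0.00037), DNAH17-AS1 by 2.08 (0.000655) and MMP24-AS1 by -1.46 (0.000766). MMP24-AS1 rose in H460 from 18.2 and 19.4 to 68.1 and 60.0 CPM (1.77 ± 0.10) and was at 0.31 ± 0.19 in A549. ZSWIM8-AS1 was at 0.55 ± 0.32 in RKO and PRKCQ-AS1 at -0.58 ± 0.24 in A549, neither of them called. Line and culture medium cannot be told apart in the comparisons with H460.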

How the results depend on the processing

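Of 177 values of the 23 counts under other settings, 141 were within 1.5 times the reported count. Those that were not are these, and their causes were not tested unless the setting is itself stricter. For RKO, members lower were 19 with library size scaling, 18 with a fold over 2 and 16 with limma on RPKM with a pseudocount of 1. RKO pairs in the same and in opposite directions were 8 and 4 with a fold over 2 and 9 and 6 with that limma fit, and the same-direction pairs were 11 with a mean over 1 CPM, a filter chosen after seeing the data. For A549, members higher were 2 with library size scaling, 11 without a filter (1 lower), 26 with a replicate block (12 lower), 2 with the mean over 1 CPM, 3 and 2 with limma at pseudocounts of 0.1 and 1 and 18 in the joint fit (3 lower), and DESeq2 called 1 lower. A549 pairs in the same direction were 1 with library size scaling, the mean over 1 CPM and limma at a pseudocount of 1, 7 with the replicate block and 5 in the joint fit, and pairs in opposite directions were 1 without a filter, 4 with the replicate block and 2 in the joint fit. A549 pairs with a changed ratio were 27 with the replicate block, and members whose effect differed between RKO and A549 were 54. For H460, pairs in the same and opposite directions were 31 and 10 with a fold over 2, 88 and 63 with no fold minimum and 37 and 6 with limma at a pseudocount of 1, which gave 19 members higher.

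Without 1 library, counts ran from 34 to 43 higher and 12 to 40 lower in RKO, 0 to 13 and 0 to 5 in A549, and 36 to 49 and 78 to 124 in H460. Changed ratios ran from 48 to 93, 1 to 10 and 144 to 167. Pairs in the same direction ran from 8 to 14, 0 to 2 and 40 to 48, and in opposite directions from 6 to 12, 0 to 3 and 19 to 25. Members whose effect differed ran from 13 to 43 (RKO and A549), 71 to 118 (RKO and H460) and 44 to 94 (A549 and H460). In such fits the lone library of a group is taken to vary like the other. With the replicate block RKO had 68 higher and 39 lower, A549 had 26 and 12, and H460 had 51 and 132. It ended the call of none of the 66 named genes in a line where it was made.

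Of 1281 values of 66 named genes under other settings, 1211 stayed past the thresholds, 70 did not, 36 of these with limma at a pseudocount of 1, and 0 reversed. Of 372 values of these genes without 1 library, 57 were not past the thresholds. A gene that met the level filter in 1 condition only gave no value when a library of that condition was left out. With 2 replicates a group and a median level under 1 RPKM, small changes of most members were not detectable.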

Other observations

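Of the antisense lncRNAs, 18 were on the study's list of noncoding RNAs induced early in hypoxia in another colon cancer line, HCT116. The HCT116 libraries are not analysed here. That list rests on nascent RNA, the RNA being transcribed, after a hypoxia much shorter than 24 h. It thus differs in measure and time from the polyadenylated RNA compared below. In RKO 4 of the 8 tested were higher and 0 lower (FAM13A-AS1, GMDS-AS1, RAB11B-AS1 and SLC2A1-AS1), beside 26.0% higher over all members and 18.8% over all genes. In A549 2 of 13 were higher, NR2F2-AS1 and SLC2A1-AS1, where 2.22% of all genes were. In H460 6 of 17 were higher and 5 lower, the latter being ACVR2B-AS1, ARRDC3-AS1, PITRM1-AS1, PRC1-AS1 and STARD4-AS1. Of all H460 genes 24.6% were higher and 27.3% lower, and of all members 17.9% and 45.6%. GMDS-AS1, opposite a gene of GDP-fucose synthesis, rose by 1.38 in RKO and 1.01 in H460 on the log2 scale, and PITRM1-AS1 changed by -3.17 in H460 (edgeR adjusted p = 3.21e-05) and by 0.05 in RKO (0.96). These genes were named because they are on that list.

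The homeobox antisense lncRNAs without a partner of that name differed in level between the lines. HOXB-AS1 was at 2.13 and 2.89 RPKM in normoxic RKO. Normoxic A549 had 7.42 and 10.8 RPKM, and H460 0.0918 and 0.0387. HOXC-AS1 was listed at 0 in all RKO libraries and at 1.91 and 1.86 RPKM in normoxic A549. HOXD-AS2 was at 1.81 and 1.14 RPKM in normoxic RKO and at 0 in A549. These values were picked after they were seen.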
